A study of Homo sapiens with 46 samples.

Results

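EIF4E2 encodes 4EHP, a cap-binding protein related to eIF4E. It was followed here as 1 transcript row, ENST00000258416.8, chosen by its identifier from the 100283 transcript rows that the 46 count files share. The row is given 246 codons in the footprint files. In RefSeq's annotation of GRCh38.p14 the gene lies on the plus strand of chromosome 2 from 232550689 to 232583644, is protein coding and has 7 annotated transcripts. The same annotation lists the pseudogenes EIF4E2P1 on chromosome 20 and EIF4E2P2 on chromosome 3; whether reads are shared between them and EIF4E2 was not tested.

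4EHP binds the mRNA cap but, unlike eIF4E, does not assemble the eIF4F complex that recruits ribosomes, and it therefore represses the mRNAs it occupies. It works with the GIGYF proteins. When ribosomes collide, the ubiquitin ligase ZNF598 and the factor EDF1 are known to bring GIGYF2 and 4EHP to the mRNA, which limits further initiation while the ASC-1 complex, with its helicase ASCC3, splits the stalled ribosomes.

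All libraries came from 1 human line, HEK293 Flp-In T-REx, derived from embryonic kidney and built for tetracycline-induced expression of an integrated gene. The series addresses ribosome stalling linked to the release factor eRF1, which recognises stop codons. In one arm cells received siRNA (75 nM for 72 h, then 30 nM for 24 h): a knockdown control, or siRNA against ABCE1, ASCC3, 4EHP, or ASCC3 together with 4EHP (called combined below). ABCE1 recycles ribosomes after termination. This arm has RNA-seq for control, ASCC3, 4EHP and combined (2 libraries each), monosome footprints for all 5 conditions (2 each), and disome footprints, which are protected by a pair of touching ribosomes, for control, 4EHP and combined (2 each) and for ABCE1 and ASCC3 (1 each). In the other arm stable lines overexpressed SBP-tagged eRF1, either the unchanged form (WT) or the AAQ form, induced over 48 h with tetracycline at 0.2 μg/ml, beside naive cells of the parent line. There, both footprint types were taken before (input) and after (pulldown) capture by the tag; WT and AAQ have 2 libraries of each and naive cells 1. No label ties a replicate to its own culture, and the spread that the p-values rest on may therefore be technical.

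Values are CPM, each count scaled to the library's summed transcript counts, and ranges in brackets after a single library are exact 95% Poisson intervals, which cover counting error only. Summed counts ran from 34097654 to 56402314 in RNA-seq, from 4677576 to 29096832 in knockdown monosomes and from 1381905 to 5495262 in knockdown disomes. In the eRF1 arm they ran from 1291870 to 48797868 in monosomes and from 50623, in the naive pulldown, to 2365041 in disomes. One read can count for several isoform rows, so these sums exceed the number of reads.

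EIF4E2 RNA fell strongly under its own siRNA. The control libraries held 14.3 and 15.2 CPM. The 4EHP libraries held 1.25 and 1.06 CPM (58 and 36 counts), and the combined libraries 1.77 and 1.61 CPM (72 counts each). All 4 libraries with 4EHP siRNA lay below all 4 without it, and the remaining mean level was 7.83% of control after 4EHP siRNA and 11.5% after the combined treatment.

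In edgeR's quasi-likelihood test with Benjamini-Hochberg adjustment, the log2 difference from control was -3.68 (SE 0.20, adjusted p = 6.26e-08) for 4EHP. For that comparison 0.0232% of 30222 transcripts tested were called in either direction, 7 lower and 0 higher, EIF4E2 among them. Without 4EHP replicate 1 the calls numbered 700 lower and 854 higher, while EIF4E2 stood at -3.85. The combined knockdown gave -3.23 (SE 0.19, adjusted p = 1.06e-07 in edgeR), beside 3.57% of transcripts called. An exact two-sided permutation test over the 8 libraries, 4 with 4EHP siRNA against 4 without, gave p = 0.0286, the smallest value this design allows (adjusted p = 0.0429 over 3 assays).

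ASCC3 siRNA alone left EIF4E2 RNA at 14.3 and 10.6 CPM. The first value lies within the control range and the second below it, and the log2 difference of -0.34 (SE 0.16) did not pass edgeR's test (adjusted p = 0.275, with 2.63% of transcripts called). Combined and 4EHP knockdown differed by 0.45 on the log2 scale (SE 0.22, adjusted p = 0.369 in edgeR, 1.39% called), so the order of these neighbouring levels was not resolved.

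**Figure D1:**
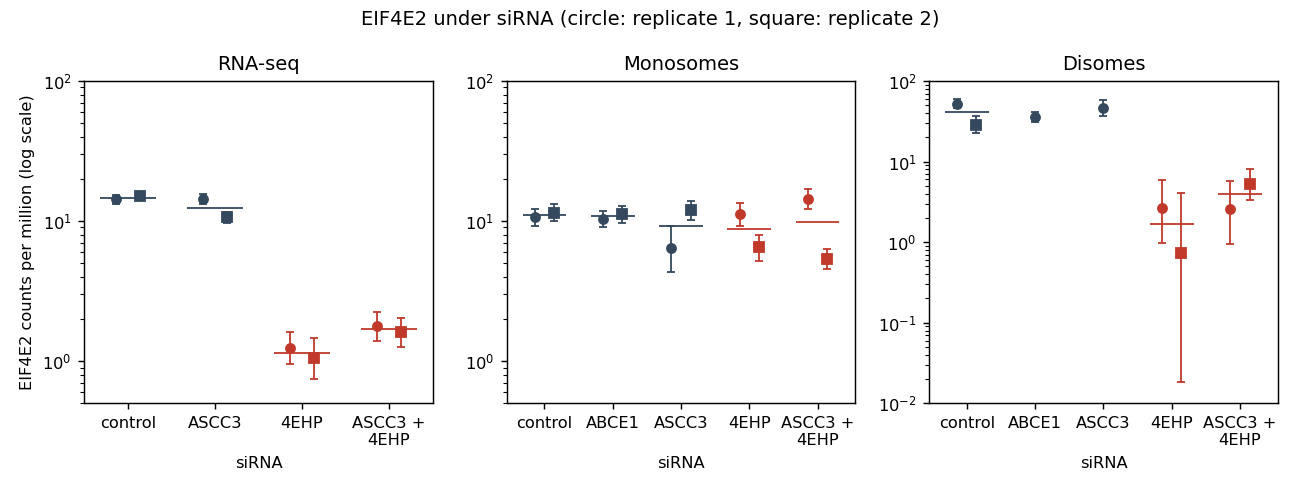
EIF4E2 CPM on a log axis (scale differs in the disome panel) in RNA-seq, monosome and disome libraries of the siRNA arm; points are libraries, bars exact 95% Poisson intervals and horizontal lines means of 2 libraries. The libraries with 4EHP siRNA (red) lie below all others in RNA-seq, at 1.06 to 1.77 CPM, and in disomes, at 0.724 to 5.33 CPM, but overlap them in monosomes.

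Disome footprints on EIF4E2 fell with the RNA. The control libraries held 52.6 CPM [46.3 to 59.6] and 28.9 CPM [22.6 to 36.4], apart by more than counting error. The 4EHP libraries held 2.68 and 0.724 CPM (6 and 1 counts) and the combined libraries 2.61 and 5.33 CPM (6 and 21 counts). The single ABCE1 and ASCC3 libraries, at 35.8 and 46.5 CPM, lay inside the control range, so the libraries with and without 4EHP siRNA did not overlap.

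The mean fell to 4.18% of control after 4EHP siRNA and to 9.75% after the combined treatment. The log2 difference was -4.42 for 4EHP (SE 0.37, adjusted p = 4.43e-28 in edgeR), against 3.24% of 11042 transcripts called. It rests on few counts: without 4EHP replicate 1, which leaves a library with 1 count, it was -5.78. The combined knockdown gave -3.38 (SE 0.27, adjusted p = 1.48e-31 in edgeR), against 7.62% called. The exact permutation test, 4 libraries against 4, gave p = 0.0286, again the smallest possible (adjusted p = 0.0429). ABCE1 and ASCC3 siRNA gave log2 differences of -0.24 (SE 0.22, adjusted p = 0.990) and 0.13 (SE 0.25, adjusted p = 0.905) in edgeR, with 0.19% and 0.634% of transcripts called. Each of these comparisons has 1 library in its treated group, and its spread was taken from the other groups.

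Monosome footprints on the same row did not follow. The control libraries held 10.7 and 11.5 CPM and the ABCE1 libraries 10.4 and 11.2 CPM. The ASCC3 libraries held 6.41 CPM (30 counts) and 11.9 CPM. The libraries labelled 4EHP held 11.2 and 6.49 CPM, and those labelled combined 14.3 and 5.40 CPM. Replicates of the ASCC3, 4EHP and combined groups lay further apart than counting error, with Poisson intervals that do not overlap, and the 4 libraries with 4EHP siRNA spanned 5.40 to 14.3 CPM, overlapping the 6.41 to 11.9 CPM of the 6 without.

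The log2 difference from control was -0.36 (SE 0.54, 95% interval -1.72 to 1.003, adjusted p = 0.882 in edgeR) for the libraries labelled 4EHP, with 0.755% of 25309 transcripts called. It was -0.47 (SE 0.50, interval -1.74 to 0.79, adjusted p = 0.633 in edgeR) for those labelled combined, with 13.9% called. Neither interval reaches the RNA difference of the same knockdown. Both intervals were worked back from edgeR's F statistic and are approximate. The combined value turned on single libraries: it was -1.09 (adjusted p = 0.0168 in edgeR) without combined replicate 1 and 0.33 without combined replicate 2. The 4EHP value was 0.034 without 4EHP replicate 2. The exact permutation test of 4 libraries against 6 gave a difference of -0.21 and p = 0.486. ABCE1 and ASCC3 siRNA gave -0.060 and -0.092 (adjusted p = 0.991 and 0.964 in edgeR), beside 0.083% and 5.79% called. Libraries labelled combined and 4EHP differed by -0.12 (SE 0.57, adjusted p = 0.962 in edgeR, 5.1% called).

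Since the targeted gene's own monosome count does not separate the libraries labelled 4EHP or combined from control, other transcripts were read as a check of the labels. Of the 6 other transcripts called lower in 4EHP RNA-seq, 5 could be tested in monosomes; 5 had negative differences and 4 were called lower, where 0.431% of all transcripts tested were called lower, with a median log2 difference of -0.96 against 0.0023 over all transcripts tested. For the combined knockdown, 614 of the 622 others could be tested, 587 were negative and 425 were called lower, where 7.88% of all transcripts tested were called lower. The list of the combined knockdown cannot speak for its 4EHP siRNA alone, since ASCC3 siRNA by itself called 597 transcripts lower in RNA-seq, and the 4EHP list is short. It also depends on the setting: with only the compared groups fitted, 4EHP RNA-seq called 1 transcript, EIF4E2, instead of 7. Whether the 6 others belong to separate genes was not tested. In disomes 1 of the 6 could be tested and was not called. For the combined knockdown 111 of 421 tested were called lower in disomes, where 479 of all 11042 transcripts tested were called lower.

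The isoform rows of the locus separate the monosome counts further. Besides ENST00000258416.8, 7 rows of 189 to 237 codons were joined with it because their counts run together. The shortest, ENST00000409167.7, was used to split the counts. Its own count is called inside, and the count of the longer row less this is called outside. The split is a subtraction of 2 deposited counts and was chosen after the monosome values had been seen. It assumes that every read of the shortest row also counts for ENST00000258416.8, which was not tested. The joined rows are not all nested. In combined monosomes ENST00000409495.5 (234 codons) held a mean of 9.89 CPM, against 9.87 CPM for ENST00000258416.8.

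Outside counts in monosomes fell under 4EHP siRNA. They numbered 52 and 40 in control (2.58 and 2.19 CPM), 59 and 45 under ABCE1 siRNA, and 6 and 44 under ASCC3 siRNA. They numbered 1 and 6 in the libraries labelled 4EHP (0.0991 and 0.437 CPM) and 2 and 6 in those labelled combined (0.198 and 0.206 CPM). All 4 libraries with 4EHP siRNA lay below the 1.28 to 3.08 CPM of the 6 without it.

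The mean outside level was 11.3% of control for 4EHP and 8.48% for combined. The log2 differences were -2.98 (SE 0.44, adjusted p = 8.31e-06 in edgeR) and -3.55 (SE 0.40, adjusted p = 9.22e-10 in edgeR). The exact permutation test of 4 against 6 libraries gave p = 0.00476, the smallest possible (adjusted p = 0.0143). These tests of outside counts were not planned, since the split was chosen with the monosome values known, and their p-values are descriptions. For comparison, outside counts in RNA-seq changed by -3.87 and -3.74 on the log2 scale.

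Inside counts behaved differently in monosomes. They were 8.08 and 9.31 CPM in control, 11.1 and 6.05 CPM in the libraries labelled 4EHP, and 14.1 and 5.19 CPM in those labelled combined. The ranges with and without 4EHP siRNA overlapped, and the exact permutation test gave a log2 difference of 0.10 (p = 0.757). In RNA-seq the inside counts fell with the rest, from 7.44 and 7.94 CPM to 0.528 to 1.18 CPM in the 4 libraries with 4EHP siRNA. In disomes they fell from 45.8 and 25.7 CPM to 0.724 to 4.32 CPM.

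A comparison of shares was not planned and uses the split chosen after the monosome values had been seen. Its p-values are therefore descriptions. The share of monosome counts lying outside makes the contrast directly. It was 19.0% to 25.9% in the 6 libraries without 4EHP siRNA and 0.885% to 6.74% in the 4 with it, which do not overlap (exact permutation p = 0.00476, the smallest possible, adjusted p = 0.0143 over 3 assays). In RNA-seq the share was 42.3% to 47.8% without and 33.3% to 50% with the siRNA (exact permutation p = 0.171), and in disomes 7.79% to 12.9% without and 0% to 19.0% with it (exact permutation p = 0.657), the latter from 1 to 21 counts a library. Where within the rows the monosome footprints lie is not given by counts per transcript, and the source of the inside counts was not tested.

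**Figure D2:**
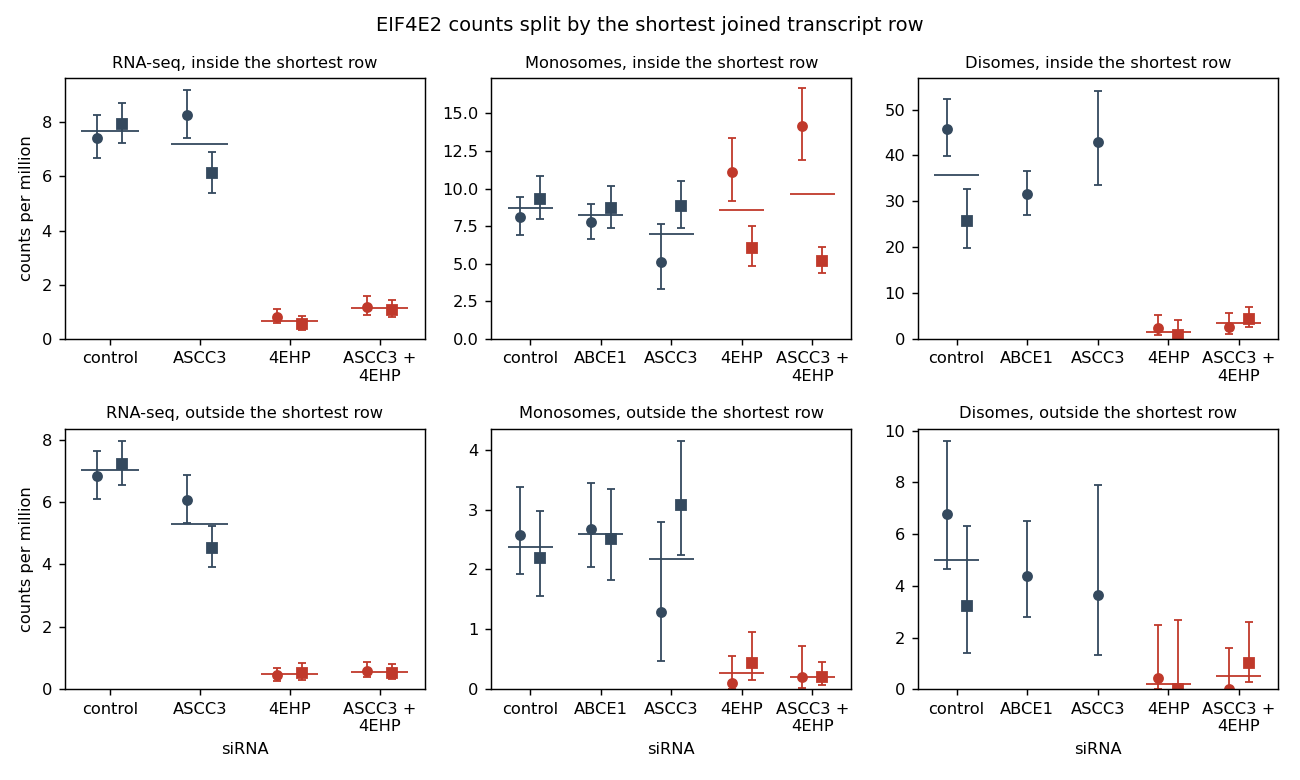
EIF4E2 CPM inside (top) and outside (bottom) the shortest joined row, by assay and siRNA; points are libraries, bars exact 95% Poisson intervals, horizontal lines means of 2 libraries. In monosomes the libraries with 4EHP siRNA (red) reach at most 0.437 CPM outside, but 5.19 to 14.1 CPM inside.

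The other joined rows gave the same picture, as they share most of their counts. After 4EHP siRNA the 7 rows stood at 7.25% to 8.61% of control in RNA-seq, 84.6% to 98.7% in monosomes and 3.96% to 4.34% in disomes. These are overlapping counts and not separate measurements.

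Relative to its RNA, EIF4E2 carried 0.753 times as many monosome CPM in control, 7.68 times in 4EHP and 5.84 times in combined libraries. The change in this ratio was 3.31 on the log2 scale for 4EHP (SE 0.67, 95% interval 1.79 to 4.84) and 2.86 for combined (SE 0.63, interval 1.42 to 4.31). Neither passed edgeR's interaction test over 32773 transcripts (adjusted p = 0.973 and 0.511), in which 0% and 0.0488% were called. Without combined monosome replicate 2 the combined change was 3.48 and was called by edgeR (adjusted p = 0.00875). For 4EHP edgeR called 0 transcripts, with 1501 below an unadjusted p of 0.05. DESeq2 called 1, which is EIF4E2 (adjusted p = 0.0182). DESeq2 also called the combined ratio (adjusted p = 0.0136). With outside counts alone the changes were 0.84 (SE 0.68) and 0.16 (SE 0.69), and neither was called. For ASCC3 siRNA the change was 0.17 (SE 0.60, adjusted p = 0.984 in edgeR, 0.296% called).

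**Figure D3:**
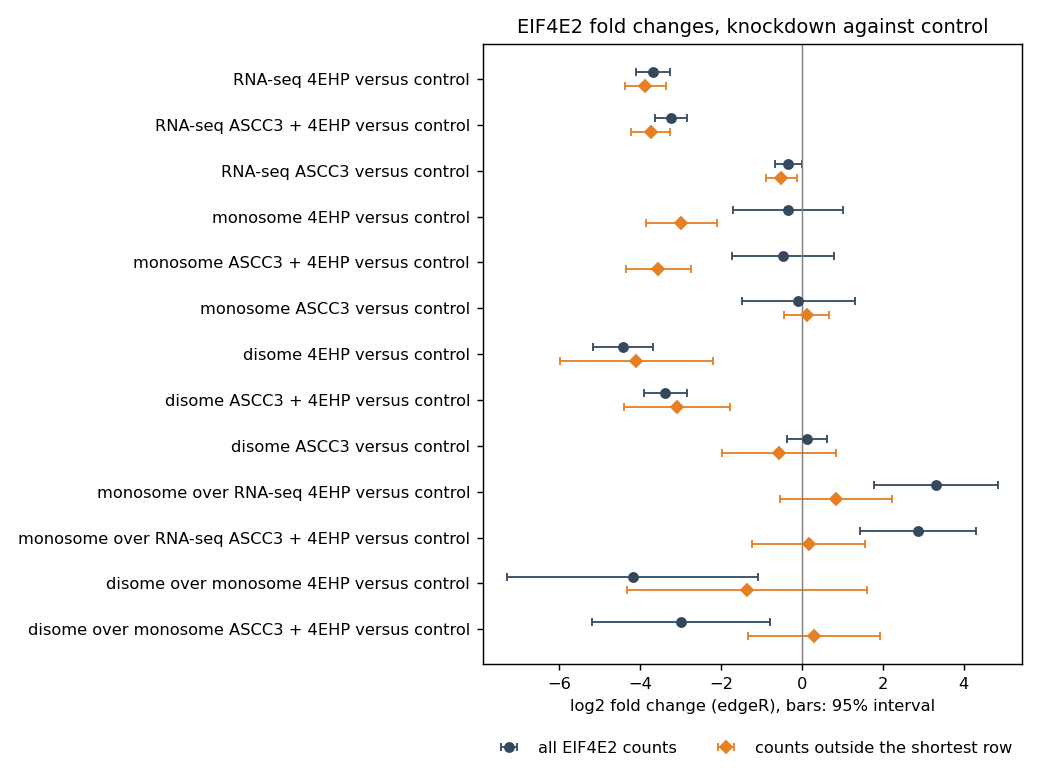
log2 fold changes of EIF4E2 against control siRNA from edgeR with 95% intervals, for all counts (circles) and for counts outside the shortest row (diamonds); "over" marks the change in a ratio of 2 assays. For monosomes after 4EHP siRNA the circle stands at -0.36 and the diamond at -2.98, while in RNA-seq and disomes both lie below -3.

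In control siRNA cells EIF4E2 carried many disome footprints for its monosome footprints. The ratio of disome to monosome CPM was 3.68 (2.51 to 4.94 over pairs of libraries), higher than in 99.2% of 13254 transcripts with at least 100 control monosome counts, whose median was 0.644. Leaving out either control disome library moved this percentile to 97.1% or 99.7%. Per 1000 codons EIF4E2 ranked above 83.1% of 18383 transcripts in RNA-seq, 64.4% of 13254 in monosomes and 68.5% of 3427 in disomes. Each set holds the transcripts with at least 100 control counts in that assay, so these percentiles are not comparable with each other. The ratio was 3.32 under ABCE1 siRNA and 5.08 under ASCC3 siRNA, each with 1 disome library. Of the 320 control disome counts, 280 lay inside the shortest row. With outside counts alone the control ratio was 2.10 (1.25 to 3.10 over pairs of libraries). The ratio was lower in the inputs of the eRF1 arm, at 0.351 in naive cells and 0.614 with WT eRF1. The arms were not tested against each other.

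After 4EHP siRNA the ratio of disome to monosome CPM was 0.192 (0.0646 to 0.413 over pairs of libraries), and after combined siRNA 0.402 (0.182 to 0.989). These changes of -4.18 (SE 1.35) and -2.99 (SE 0.96) on the log2 scale did not pass edgeR's interaction test (adjusted p = 0.378 and 0.314), in which 0.486% and 0.397% of 22654 transcripts were called. Leaving out 1 library moved them between -5.73 (without 4EHP disome replicate 1) and -3.62, and between -3.80 and -2.37, with no call in edgeR. DESeq2 called both (adjusted p = 0.0036 and 0.00873). Outside counts gave -1.36 (SE 1.497) and 0.30 (SE 0.83), neither called. Outside disome counts numbered 1 and 0 in the 4EHP libraries and 0 and 4 in the combined libraries. These are too few to decide whether the ratio outside changed.

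**Figure D4:**
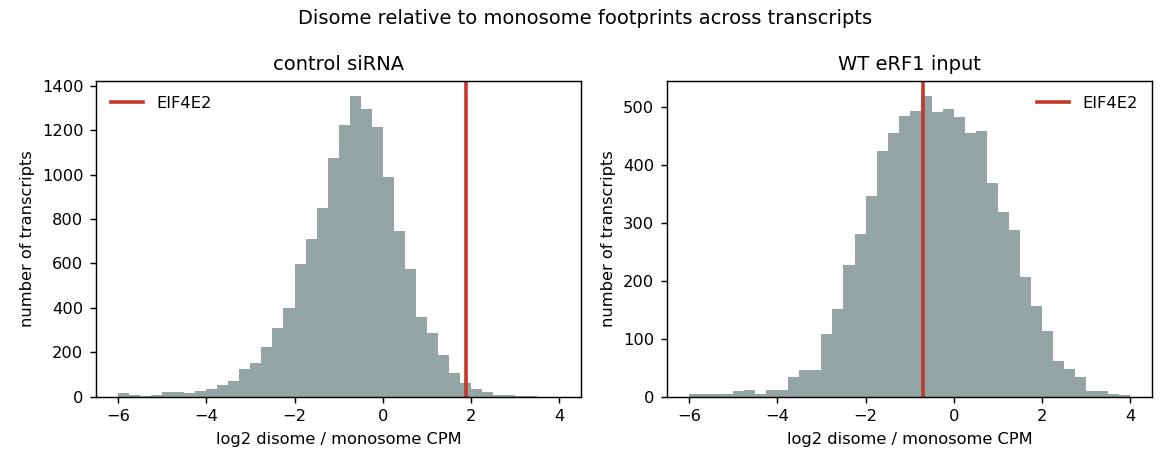
Number of transcripts by log2 ratio of disome to monosome CPM in control siRNA cells (left, at least 100 monosome counts) and in WT eRF1 input (right, at least 50); transcripts with no disome count are not drawn and values beyond the axis are in the end bins. EIF4E2 (red line) lies at 1.88, in the right tail, in control siRNA cells and at -0.70, near the middle, in WT input.

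In the eRF1 arm EIF4E2 kept a narrow range in monosomes. The input libraries held 12.1 CPM in naive cells, 11.2 and 13.1 CPM with WT eRF1, and 10.2 and 15.3 CPM with AAQ eRF1. The pulldowns held 13.9 CPM in naive cells (18 counts), 10.5 and 11.96 CPM with WT, and 12.6 and 13.2 CPM with AAQ. Their range of 10.2 to 15.3 CPM takes in both control siRNA values; the arms were separate experiments and were not tested against each other.

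Pulldown and input did not differ detectably for WT (log2 difference -0.11, SE 0.19, interval -0.48 to 0.26, adjusted p = 0.814 in edgeR) or for AAQ (0.026, SE 0.18, interval -0.32 to 0.37, adjusted p = 0.968). Of 17474 transcripts 7.2% and 4.96% were called in these comparisons. Input AAQ against WT gave 0.17 (SE 0.23, adjusted p = 0.812 in edgeR, 3.57% called). Both AAQ pulldowns lay above both WT pulldowns, and this difference of 0.31 (SE 0.10) passed the test (adjusted p = 0.0174 in edgeR), in a comparison that called 22.0% of all transcripts. The call was lost in DESeq2 (adjusted p = 0.282) and on leaving out AAQ replicate 1, AAQ replicate 2 or WT replicate 1 (adjusted p = 0.0732, 0.0726 and 0.26 in edgeR). With outside counts the difference was 0.19 (adjusted p = 0.588 in edgeR).

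Disomes on EIF4E2 were sparse in this arm. The inputs held 4.23 CPM in naive cells (10 counts), 6.09 and 8.87 CPM with WT (4 and 13 counts), and 13.8 and 4.56 CPM with AAQ (17 and 3 counts). The pulldowns held 12.04 and 11.4 CPM with WT (9 and 21 counts) and 11.1 and 15.02 CPM with AAQ (21 and 12 counts). The naive pulldown had 0 of 50623 counts. The limit that a count of 0 allows, 3 counts, is 59.3 CPM there, and the two-sided Poisson interval drawn in the plot of the eRF1 arm reaches 72.9 CPM; both lie above every value of the tagged lines. Both WT pulldowns lay above both WT inputs, and the AAQ libraries overlapped.

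None of the 4 disome comparisons passed edgeR's test. Pulldown against input gave 0.49 for WT (SE 0.46, adjusted p = 0.813, 1.16% of 11097 transcripts called) and 0.37 for AAQ (SE 0.43, adjusted p = 0.825, 3.18% called). AAQ against WT gave 0.54 in input (SE 0.50, adjusted p = 0.682, 6.19% called) and 0.42 in the pulldown (SE 0.40, adjusted p = 0.605, 11.9% called). The ratio of disome to monosome CPM was 0.351 in naive input, 0.614 in WT input (0.465 to 0.789 over pairs of libraries) and 0.719 in AAQ input (0.298 to 1.35). The WT and AAQ values were higher than in 42.7% and 47.1% of transcripts with at least 50 monosome counts. In the pulldowns it was 1.04 with WT and 1.01 with AAQ.

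**Figure D5:**
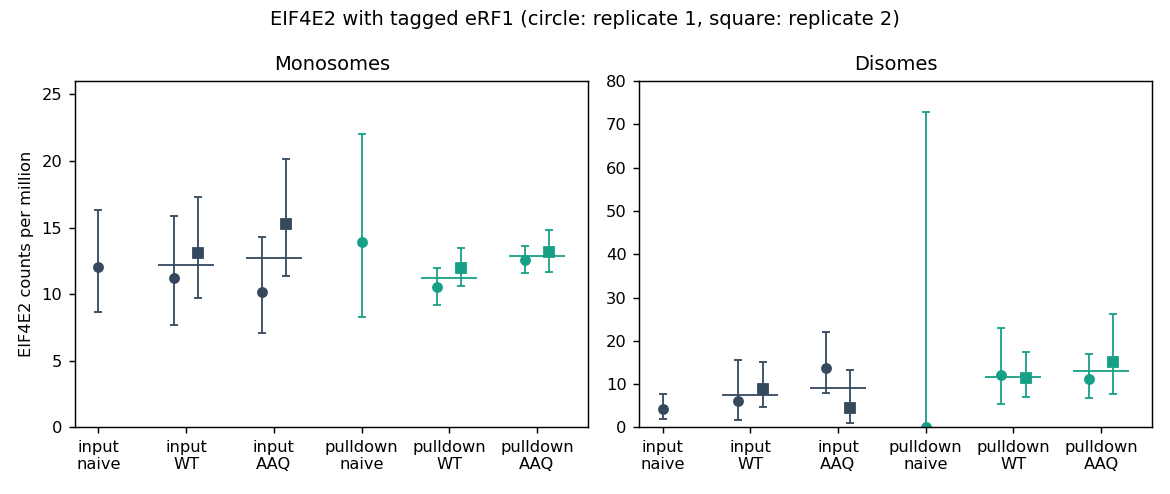
EIF4E2 CPM in monosome and disome libraries of the eRF1 arm, input in dark blue and pulldown in green; points are libraries, bars exact 95% Poisson intervals, horizontal lines means of 2 libraries. Monosome values span 10.2 to 15.3 CPM, and the naive disome pulldown, with 0 of 50623 counts, has an interval up to 72.9 CPM.

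Over the 26 siRNA libraries, the transcript whose log2 CPM ran most like EIF4E2 was ENST00000416518.1 (125 codons), with Pearson's r = 0.83 among 6465 transcripts, followed by ENST00000546211.5 (436 codons) with r = 0.79. Values were centred on the control mean of each assay before they were correlated. Both transcripts were picked by their pattern in these same libraries. The r values and the tests of 4EHP siRNA below are therefore descriptions, since the choice favoured low p-values. In disomes ENST00000416518.1 held 68.9 and 65.8 CPM in control and 38.8 and 31.1 CPM after 4EHP siRNA, a log2 difference of -0.92 (SE 0.19, adjusted p = 0.000181 in edgeR). Its differences of -0.33 in RNA-seq and -0.052 in monosomes were not called (adjusted p = 0.747 and 0.844 in edgeR). Its RNA-seq mean was 125 CPM in control, 101 CPM after 4EHP siRNA and 85.6 CPM after combined siRNA. After ASCC3 siRNA alone it was 89.4 CPM, so lower RNA was not particular to 4EHP siRNA. ENST00000546211.5 held 64.1 and 62.4 CPM in control RNA-seq and 42.0 and 37.9 CPM after 4EHP siRNA, a difference of -0.69 (SE 0.12) that was not called (adjusted p = 0.0657 in edgeR). It fell by 0.59 in monosomes and by 0.87 in disomes, both called (adjusted p = 4.58e-05 and 0.0308 in edgeR). Its RNA-seq and disome verdicts depended on the setting. DESeq2 called the RNA-seq difference (adjusted p = 0.00405) and not the disome difference (adjusted p = 0.227). The same held in edgeR without a count filter (adjusted p = 0.000122 and 0.0606). The gene names of both are not paired with the identifiers in the files used here.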

How the data were processed

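Raw counts per Ensembl transcript were deposited by the authors as 1 file per library, without normalization. Per the submitters' processing notes the build was hg38 and the tools included STAR 2.7.0a and UMI-tools 1.1.1; counter and annotation: not given in the sources used here. Footprint and RNA-seq files list coding lengths that differ by 10 codons. Samples were grouped by their labels.

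Isoform rows with correlated counts were joined to 1 representative (51255 with counts). EIF4E2 was tested within fits over all representatives with edgeR 4.0.16 in R 4.3.3 (TMM, minimum count 10, robust quasi-likelihood F test, adjusted p below 0.05), all groups of an assay and arm in 1 fit. Ratios of assays were interaction contrasts. The SE given for an edgeR difference was not taken from the fitted model. It is the absolute difference divided by the square root of the F statistic. The intervals of edgeR differences were built from this SE, so both are approximate. Exact two-sided permutation tests used log2(CPM + 0.5), in Python 3.11.15 with SciPy 1.17.1. The edgeR fits were tested on simulated counts only for 4EHP against control in RNA-seq, monosomes and disomes, and not for the ratios or the eRF1 arm. Alternatives were DESeq2 1.42.0, other scaling and filtering, all rows as features, a replicate block, fits of only the compared groups, and leaving out each library.

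EIF4E2, the contrasts and the gene lists were chosen with earlier results of these data known. The rule named EIF4E2, members of listed pathways, cell type markers and the 2 transcripts with the most similar pattern. The lists could not be applied, because 0 transcript identifiers matched a symbol in the tables used, so their counts and the check of the cell line by its markers are not given. No sequence is printed, as no transcript or protein sequence of EIF4E2 was used here. RNA-seq was stranded, per the labels' protocols.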

Additional observations from a re-analysis of the deposited data

How the results depend on the processing

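The RNA and disome losses after 4EHP and combined siRNA kept direction and call under every alternative run. Leaving out 1 library gave, as log2 differences, -3.85 to -3.56 and -3.30 to -3.17 in RNA-seq, and -5.78 to -3.86 and -4.09 to -2.82 in disomes. Monosome values ranged from -0.77 to 0.034 (4EHP), -1.09 to 0.33 (combined), -0.73 to 0.69 (combined against 4EHP) and -0.78 to 0.11 (ASCC3), and the monosome permutation difference from -0.44 to 0.0014 (p unadjusted). For ENST00000416518.1 in monosomes (4EHP) it ran from -0.12 to 0.0011. Disome ranges were -0.55 to 0.31 (ABCE1) and -0.18 to 0.68 (ASCC3). Ratio ranges were 2.15 to 3.48 (monosome over RNA, combined; called at 3.48), -0.52 to 0.43 (ASCC3), and -5.73 to -3.62 and -3.80 to -2.37 (disome over monosome, 4EHP and combined). Ranges in the eRF1 arm were 0.23 to 0.39 (monosome pulldown, AAQ against WT), -0.24 to 0.37 (monosome AAQ pulldown against input), -0.17 to 0.44 (monosome input), -0.66 to 0.94 (disome input) and -0.079 to 1.58 (disome AAQ pulldown against input).

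DESeq2 called the monosome over RNA ratio (3.39 for 4EHP, 2.97 for combined) and the disome over monosome ratio (-4.16 and -3.23); fitting only the compared groups called 3.35 and -4.18 for 4EHP. DESeq2 lost the AAQ pulldown call (0.32) and turned combined against 4EHP in monosomes to 0.086. Outside counts, an alternative chosen after seeing the data, called the monosome losses (-2.98, -3.55, permutation -1.96) and lost the AAQ pulldown call (0.19). They turned ABCE1 and ASCC3 in monosomes (0.10, 0.12), input AAQ against WT (-0.66), ASCC3 in disomes (-0.57) and the combined disome over monosome ratio (0.30). Inside counts turned the monosome permutation difference to 0.10. The cause was not tested. The 4EHP RNA-seq comparison called 1 transcript with only the compared groups fitted and 151 without a count filter, against 7. Over all settings, transcripts called lower after 4EHP siRNA numbered 46 to 398 in monosomes (109 with the design used in the report) and 34 to 588 in disomes (191 with it).

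Replicate numbers are shared by groups, but the labels name no shared source. Correlations of same-numbered libraries ran from -0.488 to 0.818 in RNA-seq. The highest was between the 4EHP and ASCC3 groups and the lowest between the ASCC3 and combined groups. Correlations ran from 0.051 to 0.428 in knockdown monosomes and from 0.081 to 0.231 in knockdown disomes. All 10 monosome pairs and all 3 disome pairs of groups were positive, though not every pair exceeded 0.1. Whether same-numbered libraries share a source was not tested. The replicate block turned ASCC3 in disomes to -0.11 and changed no other EIF4E2 call; 4EHP in RNA-seq was then -3.70. A minimum of 500 monosome counts was tried first for the disome over monosome percentile and gave no value, since EIF4E2 has 425; a minimum of 200, added afterwards, gave 99.1%. Low counts limit disomes most.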
